A study of Caenorhabditis elegans with 8 samples.

Results

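The effect of losing *egl-9* was examined by comparing 2 libraries of *egl-9(lf)* animals (strain JT307, allele *egl-9(sa307)*) with 2 libraries of the wild type (N2), which together made up 4 of the 8 libraries of the series. Every library held polyA-selected RNA of about 150 whole, very young adult *Caenorhabditis elegans* with 0 to 1 eggs in the uterus, grown at 22.5°C on the bacterium *Escherichia coli* OP50. The labels list no *hif-1* allele and no transgene for either strain, so that the *egl-9* allele was the only labelled difference between them. Of the other 4 libraries, 2 were from animals that lacked *hif-1* as well as *egl-9*, labelled *egl-9(lf) hif-1(lf)*, and 2 from *cyp-36A1(lf); egl-9(lf)*. They entered the fit for the estimate of the spread. The mutant without *hif-1*, and for a few genes *cyp-36A1(lf); egl-9(lf)*, is quoted where its level bears on a gene described here. The mutant was represented by 1 strain with 1 allele, and each library was a separate population of animals. Because whole animals were sequenced, fewer cells of a type and less RNA per cell cannot be told apart in any result given below.

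EGL-9 is the nematode prolyl hydroxylase that uses oxygen to mark the transcription factor HIF-1 for recognition by the von Hippel-Lindau protein VHL-1 and for breakdown by the proteasome. Without EGL-9, HIF-1 accumulates and acts even when oxygen is plentiful, as it otherwise does in hypoxia. HIF-1 is known in this animal for controlling the response to hydrogen sulfide and cyanide, iron storage, egg laying and resistance to several stresses. Its own inhibitors, *egl-9* and *rhy-1*, are among its transcriptional targets.

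The depth was 22269111 and 11925027 expected read counts for wild-type replicates 1 and 2, and 15866536 and 12938757 for the mutant replicates. Of 21372 genes with a read in any library, 14311 had enough counts to be tested, and levels are given in CPM, the reads of a gene scaled to a common library total, which compare 1 gene between libraries and not different genes. A gene was called raised or lowered at an adjusted p under 0.05 in the quasi-likelihood test of edgeR, with p-values adjusted over all tested genes by the Benjamini-Hochberg method, with the replicate number as a block. By this rule 1452 genes (10.1% of those tested) were raised and 2408 (16.8%) were lowered in *egl-9(lf)*. At least 2-fold changes were seen in 594 raised genes (4.15%) and 1626 lowered genes (11.36%). Raised genes made up 37.6% of the calls, but 51.3% when libraries were scaled to their totals alone, which moved the median log2 fold change of all genes by 0.08. The 2-fold calls depended less on single libraries: 401 to 523 raised and 1054 to 1514 lowered genes passed with 1 library left out, the lowest number in each case without wild-type replicate 1. All raised calls numbered 514 and 875 without wild-type replicates 1 and 2, and 704 and 690 without *egl-9(lf)* replicates 1 and 2. All lowered calls numbered 1286 without wild-type replicate 1 and 1523 without *egl-9(lf)* replicate 2.

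Large changes were more often increases and moderate ones more often decreases. At least 8-fold differences were found for 186 raised and 88 lowered genes, and at least 64-fold differences for 41 and 18. Genes raised 2-fold were often scarce in the wild type, with a mean under 1 CPM for 275 of the 594, whereas this held for 61 of the 1626 lowered genes. This contrast is partly set by the filter on low counts. A raised gene could pass it through *egl-9(lf)* alone, whereas a lowered gene with so few wild-type reads seldom could. The genes raised 2-fold together took 6170 and 6777 CPM in the wild type and 29032 and 30410 CPM in *egl-9(lf)*. Those lowered 2-fold took 86537 and 84770 CPM in the wild type and 29462 and 30201 CPM in *egl-9(lf)*. The members of both sums were chosen by this same contrast, so the sums describe the size of the change and test nothing. Both replicate pairs pointed the same way in 1440 of the 1452 raised and 2405 of the 2408 lowered genes. The calls were made from these same pairs, so this agreement follows largely from the calling and tests nothing.

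**Figure D1:**
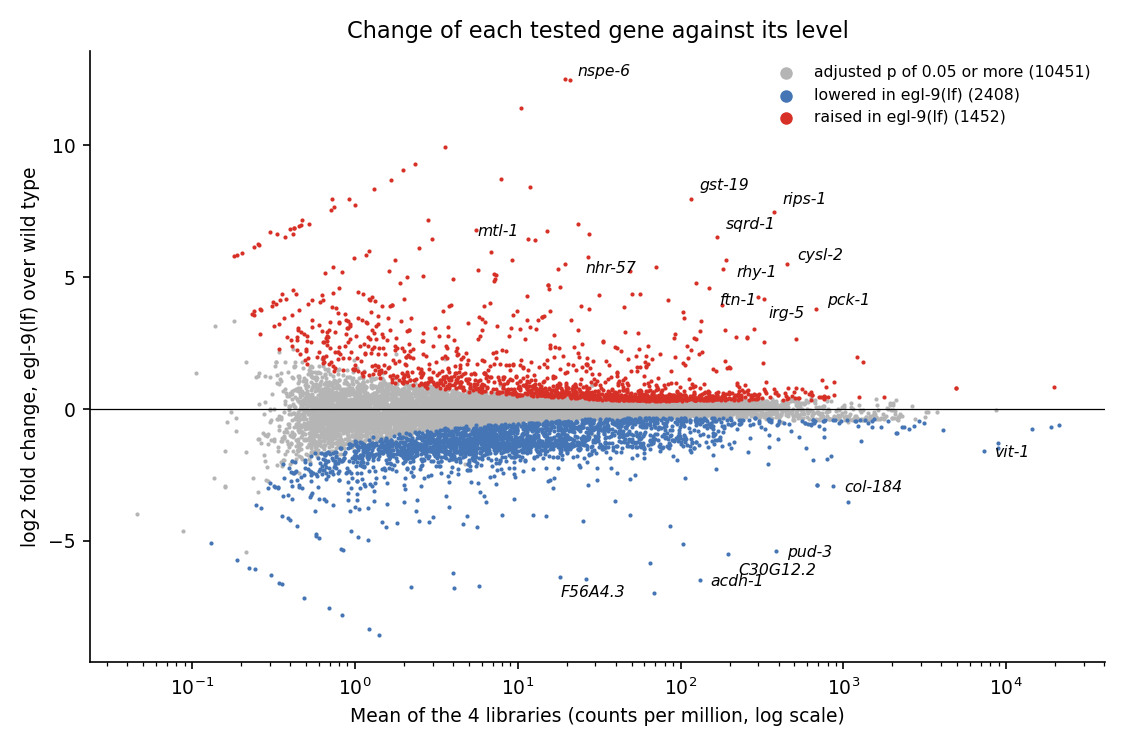
Each point is 1 of the 14311 tested genes, with its mean level over the 4 libraries in CPM on a log axis and its log2 fold change of *egl-9(lf)* over the wild type on the other axis. Red points are the 1452 raised genes, blue points the 2408 lowered genes and grey points the rest, and the labelled genes are among those described in the text.

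Of 13 genes of the HIF-1 pathway 5 were raised and none was lowered by edgeR or DESeq2, with 1 lowered at an unadjusted p under 0.05 and 1 in a fit of the 4 libraries only. *rhy-1*, which encodes a membrane protein that holds HIF-1 in check, was at 6.2 and 9.05 CPM in the wild type and 346 and 399 CPM in *egl-9(lf)* (log2 fold change 5.64, SE 0.18, adjusted p = 3.3e-12). Transcripts of *egl-9* itself were at 27.4 and 26 CPM in the wild type and 87.3 and 100.5 CPM in *egl-9(lf)* (log2 fold change 1.80, SE 0.13, adjusted p = 4.6e-08). A gene total does not show from which part of the gene the reads came, so this level is no check of the allele. *cysl-1*, whose product binds EGL-9 and inhibits it, rose from 25.2 and 23.7 to 89.3 and 108 CPM (log2 fold change 2.0, SE 0.13, adjusted p = 1e-08). For these 3 genes the 2 strains did not come near each other.

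*cyp-36A1*, a cytochrome P450 gene that the study places downstream of EGL-9 and HIF-1, was at 5.79 and 8.97 CPM in the wild type and 29.3 and 54.7 CPM in *egl-9(lf)* (log2 fold change 2.46, SE 0.27, adjusted p = 5.5e-06). *nhr-46*, a nuclear receptor gene that the study places downstream of *cyp-36A1*, changed little, from 37.2 and 35.2 to 48.4 and 49.3 CPM (log2 fold change 0.43, SE 0.12, adjusted p = 0.014), and was not called when any 1 of the 4 libraries was left out. Message for *hif-1* itself was at 187 and 189 CPM in the wild type and 161 and 142 CPM in *egl-9(lf)* (log2 fold change -0.31, adjusted p = 0.058), and *vhl-1* had a log2 fold change of 0.12 (adjusted p = 0.76). Neither passed the test.

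All 10 genes of a list of well-known HIF-1 targets were raised, with a median log2 fold change of 4.45 against 0.00421 over all tested genes. These genes are known as targets partly from *egl-9* mutants of other studies, and the list was written with earlier results of these data known. The study itself reports the rise of *fmo-2* from these data, so the 10 calls are no independent test. Its members *egl-9*, *rhy-1* and *cyp-36A1* are also in the HIF-1 pathway list above. *nhr-57*, a nuclear receptor gene widely used as a reporter of HIF-1, was at 2.69 and 4.10 CPM in the wild type and 125 and 150.1 CPM in *egl-9(lf)* (log2 fold change 5.39, SE 0.16, adjusted p = 2.7e-12). *F22B5.4* rose from 5.01 and 6.66 to 84.1 and 83.5 CPM (log2 fold change 3.88). *fmo-2*, which encodes a flavin-containing monooxygenase, was nearly silent in the wild type, at 0.137 and 0.0854 CPM in the wild type and 4.15 and 3.96 CPM in *egl-9(lf)* (log2 fold change 5.02, SE 0.45, adjusted p = 6.7e-07). In all 10 genes both mutant libraries were above both wild-type libraries, which held for 35.05% of all tested genes. All 10 were raised under each of the 14 alternative settings.

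The FMO family did not move as a block. Besides *fmo-2*, *fmo-4* (1.37) and *fmo-3* (0.88) were raised and *fmo-5* (-1.0) and *fmo-1* (-0.69) were lowered, the values in parentheses being log2 fold changes here and below. The calls of *fmo-3* and *fmo-1* were lost without the replicate block (adjusted p = 0.07 and 0.41), and the lowered members numbered 1 when any 1 of the 4 libraries was left out.

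Genes of sulfur metabolism moved in both directions, with 9 of 21 genes raised, 8 lowered and 4 not called. The raised genes included those that detoxify sulfide in mitochondria. *sqrd-1*, the sulfide:quinone oxidoreductase that takes the first step, was at 3.1 and 4.27 CPM in the wild type and 303 and 359.5 CPM in *egl-9(lf)* (log2 fold change 6.52, SE 0.19, adjusted p = 2.7e-12). *ethe-1*, the persulfide dioxygenase of the next step, rose from 7.25 and 7.09 to 33.2 and 40.6 CPM (log2 fold change 2.35, SE 0.16, adjusted p = 2.3e-08). *cysl-2*, whose product converts cyanide and cysteine to cyanoalanine and sulfide, was at 16.6 and 22.6 CPM in the wild type and 873 and 898 CPM in *egl-9(lf)* (log2 fold change 5.51, SE 0.19, adjusted p = 1.1e-11). No wild-type library came near either mutant library in these 3 genes.

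Cysteine itself is consumed by *cdo-1*, cysteine dioxygenase, which was at 9.62 and 11.6 CPM in the wild type and 72.3 and 88.9 CPM in *egl-9(lf)* (log2 fold change 2.93, SE 0.16, adjusted p = 2e-09). The sulfurtransferase gene *mpst-3* rose from 21.9 and 21.5 to 305 and 373 CPM (log2 fold change 3.95), and *mpst-2*, with 1 read in the wild type, was higher by a ratio of 74.0 (95% counting interval 12.82 to 2966). *cysl-3* (1.88) and *cbs-1* (0.99), both of the cysteine synthase and cystathionine beta-synthase family, were raised as well. The lowered genes included 3 of transsulfuration, which makes cysteine from homocysteine: the cystathionine gamma-lyase genes *cth-1* (-1.88) and *cth-2* (-0.72) and the cystathionine beta-synthase gene *cbs-2* (-1.60). Its paralog *cbs-1* was raised, as given above, so that these genes did not move as a block. *cth-2* was at 205 and 253 CPM in the wild type and 116 and 164 CPM in *egl-9(lf)*, so that the 2 strains were separate but close. The other lowered members were *mpst-4* (-2.38), *cysl-4* (-1.29), *mpst-5* (-1.0), *mpst-6* (-1.0) and *suox-1* (-0.66), *suox-1* being the sulfite oxidase gene. *mpst-5* and *mpst-6* are near-identical copies with the same values in every library and count as 1 measurement, and *cysl-4* was not called without the replicate block (adjusted p = 0.14). The glutathione synthesis genes *gcs-1* (-0.08) and *gss-1* (0.02) were among those not called.

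**Figure D2:**
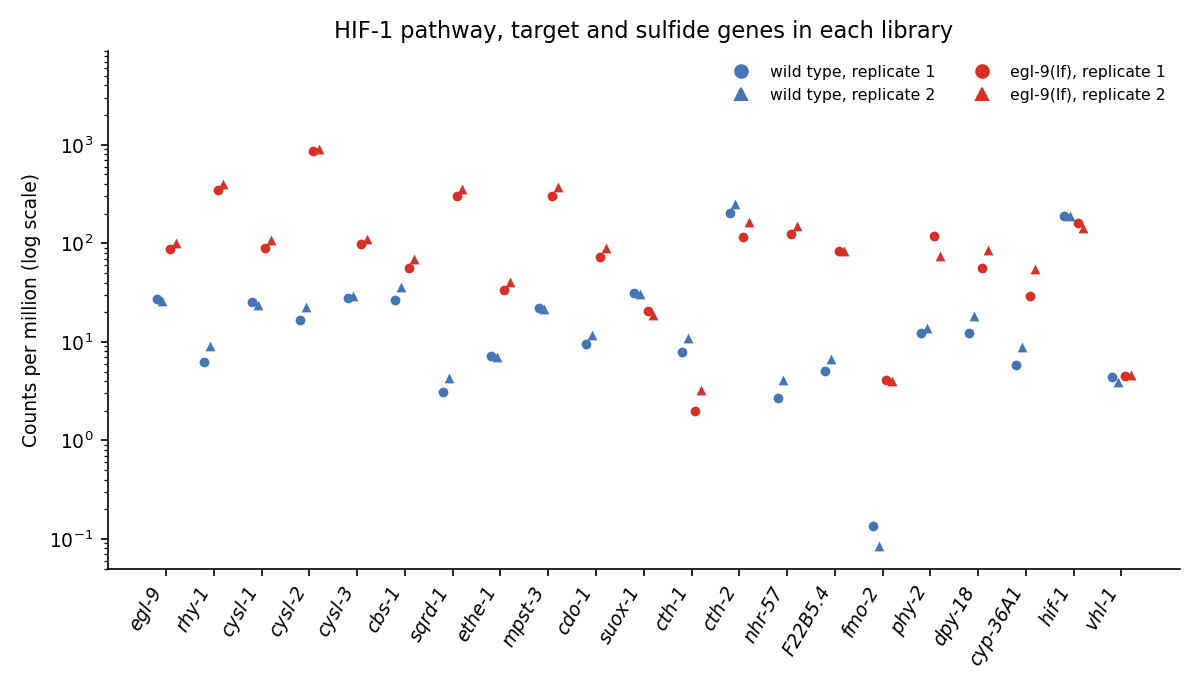
CPM on a log axis of 21 genes of the HIF-1 pathway, its targets and sulfur metabolism in each of the 4 libraries, blue for the wild type and red for *egl-9(lf)*, with circles for replicate 1 and triangles for replicate 2. Red symbols lie far above blue ones for *rhy-1*, *cysl-2*, *sqrd-1*, *nhr-57* and *fmo-2*, lie below them for *cth-1* and *cth-2*, and are close to them for *hif-1* and *vhl-1*.

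*R08E5.1* and *semo-1* were named after their values were seen. *rips-1* (R08E5.3), which the rule named, encodes a predicted methyltransferase and was at 3.46 and 5.30 CPM in the wild type and 669 and 831 CPM in *egl-9(lf)* (log2 fold change 7.48, SE 0.30, adjusted p = 4.1e-11). *R08E5.1*, next to it on chromosome V in RefSeq (WBcel235), rose from 0.456 and 0.598 to 39.8 and 68.9 CPM (log2 fold change 6.63). Counting that ignores strand can share reads between such neighbours, and the strand setting is not given in the sources used here. *semo-1*, the worm selenium-binding protein gene whose product releases hydrogen sulfide from methanethiol, was at 35.9 and 31.7 CPM in the wild type and 629.8 and 608 CPM in *egl-9(lf)* (log2 fold change 4.19, SE 0.14, adjusted p = 8.4e-12). In each of the 3 genes both mutant libraries were far above both wild-type ones.

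Of 5 tested genes for enzymes that modify collagen, the main protein of the cuticle, 3 were raised. *phy-2* and *dpy-18* encode the catalytic subunits of collagen prolyl 4-hydroxylase. *phy-2* was at 12.3 and 13.8 CPM in the wild type and 118 and 74.0 CPM in *egl-9(lf)* (log2 fold change 2.87, SE 0.18, adjusted p = 1.4e-08) and *dpy-18* at 12.4 and 18.1 CPM in the wild type and 55.6 and 84.9 CPM in *egl-9(lf)* (log2 fold change 2.20, SE 0.15, adjusted p = 2.2e-08). *let-268*, the lysyl hydroxylase gene, was raised less (0.65), and the other 2 tested members, *pdi-2* (-0.02) and *phy-3* (-0.23), were not called. The mutant replicates differed in opposite directions, *phy-2* being higher in replicate 1 and *dpy-18* in replicate 2, and all stayed above the wild type.

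Of 100 tested *col-* collagen genes 46 were raised, 42 of them at least 2-fold, and 19 were lowered, with a median log2 fold change of 0.27. Their summed level was nonetheless lower in the mutant, 33828 and 38645 CPM against 46088 and 49829 CPM in the wild type. Many of the raised ones were close to absent in the wild type. *col-78* had no read in either wild-type library and 6.73 and 7.63 CPM in *egl-9(lf)*, at least 80.0-fold higher against a floor of 3 reads over the group. *col-172* was likewise unread in the wild type and at least 8.97-fold higher. *col-91* rose from 0.274 and 0.769 to 19.1 and 8.75 CPM (log2 fold change 4.92). The near-identical *col-126* and *col-127* had the same values, from 0.410 and 2.56 to 31.7 and 26.7 CPM, and *col-73* was high mainly in mutant replicate 1, at 0.0912 and 0.0854 CPM in the wild type and 5.59 and 0.748 CPM in *egl-9(lf)*. Among the lowered collagens, *col-184* was at 1484 and 1581 CPM in the wild type and 193 and 214 CPM in *egl-9(lf)* (log2 fold change -2.91, SE 0.16, adjusted p = 2.2e-09). The count of lowered collagens was 11 without wild-type replicate 1, 12 without wild-type replicate 2 and 10 without *egl-9(lf)* replicate 1, and that of raised ones was 32 to 44 with 1 library left out.

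Collagens that set body shape gave 4 raised genes of 5 tested, 2 of which rested on a single library. *sqt-3* was at 6.57 and 3.93 CPM in the wild type and 39.1 and 44.1 CPM in *egl-9(lf)* (log2 fold change 2.98, SE 0.21, adjusted p = 4.4e-08), and *dpy-17* rose from 1.5 and 1.37 to 3.67 and 3.89 CPM (log2 fold change 1.38). *dpy-13* and *dpy-4* were high only in *egl-9(lf)* replicate 1, at 0.228 and 0.683 CPM in the wild type and 7.45 and 0.224 CPM in *egl-9(lf)* for *dpy-13* and at 0.547 and 0.854 CPM in the wild type and 8.53 and 0.598 CPM in *egl-9(lf)* for *dpy-4*. Without that library their log2 fold changes were -0.68 and -0.10, and their calls were also lost without the replicate block (adjusted p = 0.064 and 0.055). No collagen of the annular furrows, the ring-shaped grooves of the cuticle, was called by edgeR among 5 tested, none passed an unadjusted p under 0.05 and none was called by DESeq2. *mlt-10*, a gene of the molting cycle, was raised (3.07) among 3 raised and 7 lowered of 25 molting genes, and the lowered ones numbered 3 without wild-type replicate 1, 4 without *egl-9(lf)* replicate 1 and 3 without *egl-9(lf)* replicate 2.

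Both ferritin genes, which store iron, rose and 3 genes of metal transporters fell, with 3 raised and 3 lowered genes among 7. *ftn-1*, one of the ferritin genes, was at 15.5 and 8.28 CPM in the wild type and 356 and 219 CPM in *egl-9(lf)* (log2 fold change 4.59, SE 0.14, adjusted p = 3.3e-12). The other ferritin gene, *ftn-2*, rose from 393 and 384 to 597 and 621 CPM (log2 fold change 0.65, SE 0.14, adjusted p = 0.002). *smf-3*, the intestinal divalent metal importer of the DMT1 family, was at 6.38 and 7.77 CPM in the wild type and 0.901 and 0.150 CPM in *egl-9(lf)* (log2 fold change -3.73, SE 0.48, adjusted p = 2.6e-05). In each of the 3 genes the strains were well separated, and *ftn-1* was higher in mutant replicate 1 than in replicate 2, as it was in the wild type. In *egl-9(lf) hif-1(lf)* the level was 147 and 102 CPM for *ftn-1*, 609 and 723 CPM for *ftn-2* and 1.34 and 0.481 CPM for *smf-3*, so that all 3 lay outside the range of the wild-type libraries there. The ferroportin homologs *fpn-1.2* (-4.29) and *fpn-1.1* (-1.69) were lowered and *smf-1* (0.64) was raised, and the raised count was 1 without wild-type replicate 2 and 1 without *egl-9(lf)* replicate 2.

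Both metallothionein genes, whose products bind metals, were named after their values were seen or as intestinal markers and moved in opposite directions. *mtl-1* was at 0.319 and 0.256 CPM in the wild type and 26.2 and 24.5 CPM in *egl-9(lf)* (log2 fold change 6.39, SE 0.29, adjusted p = 1.9e-10). *mtl-2* fell, from 116 and 112 to 52.5 and 61.5 CPM (log2 fold change -1.01, SE 0.13, adjusted p = 2e-05).

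Of 17 classical antioxidant genes 2 were raised and 2 lowered, 11.8% each. Of all tested genes 10.1% were raised and 16.8% lowered. The lowered members were *msra-1*, a methionine sulfoxide reductase gene (from 56 and 45.5 to 11.9 and 9.64 CPM, log2 fold change -2.24), and the catalase gene *ctl-2* (-0.54). The raised ones were the catalase gene *ctl-3* (0.87) and the thioredoxin gene *trx-3* (1.23), and no raised member was left without wild-type replicate 1 or without *egl-9(lf)* replicate 1. Lowered members numbered 1 without wild-type replicate 1 and 1 without *egl-9(lf)* replicate 2.

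Of 25 globin genes 3 were raised and none was lowered by edgeR or DESeq2, with 2 lowered at an unadjusted p under 0.05 and 1 without wild-type replicate 2. *glb-1* was at 29.4 and 30.7 CPM in the wild type and 223 and 239.9 CPM in *egl-9(lf)* (log2 fold change 2.95, SE 0.15, adjusted p = 8.9e-10), and *glb-15* (1.49) and *glb-13* (1.36) followed. Globins bind oxygen, and the 2 mutant libraries gave nearly the same *glb-1* level. The share of globin genes raised was close to the 10.1% of all tested genes. Their median log2 fold change was -0.12, with 15 of the 25 genes below 0 and 10 above, so that the list as a whole did not rise.

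Glycolytic genes were raised in most cases by less than 2-fold, and 1 gene of gluconeogenesis by much more. Of 19 genes of glycolysis and lactate formation 11 were raised and 2 lowered, with a median log2 fold change of 0.44. *aldo-1*, fructose-bisphosphate aldolase, was at 146 and 151 CPM in the wild type and 277 and 317 CPM in *egl-9(lf)* (log2 fold change 1.0, SE 0.12, adjusted p = 2.1e-05), and *ldh-1*, lactate dehydrogenase, was at 56.8 and 61.2 CPM in the wild type and 108 and 124 CPM in *egl-9(lf)* (log2 fold change 0.97, SE 0.12, adjusted p = 2.6e-05). Other raised members included *gpd-3* (0.81), *gpd-1* (0.73) and *ipgm-1* (0.69), which encode 2 glyceraldehyde-3-phosphate dehydrogenases and the phosphoglycerate mutase. These changes were all 2-fold or less, and 6 to 8 members were raised with 1 library left out, with 6 without wild-type replicate 1 or without wild-type replicate 2 and 7 without *egl-9(lf)* replicate 2. The lowered members were *pfk-1.2* (-1.44) and *pyk-2* (-0.99), an isoform each of phosphofructokinase and pyruvate kinase.

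*pck-1*, one of 3 genes for phosphoenolpyruvate carboxykinase, a committed step of gluconeogenesis, was at 91.0 and 93.7 CPM in the wild type and 1243 and 1301 CPM in *egl-9(lf)* (log2 fold change 3.78, SE 0.14, adjusted p = 1.9e-11). Its paralog *pck-3* was lowered (-1.33), and *pck-2* (-0.30), *fbp-1* (-0.26) and *pyc-1* (-0.08), of the same pathway, were not called. Of the 21 genes of gluconeogenesis, glycogen and trehalose 5 were raised and 3 lowered, and the raised ones numbered 1 to 3 when any 1 of the 4 libraries was left out.

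Downstream of glycolysis the changes were smaller. Of 20 glyoxylate and citrate cycle genes 1 was raised, *mdh-1* (0.78), a malate dehydrogenase gene, and 5 were lowered, which became 1 to 3 when any 1 of the 4 libraries was left out. In the main fit 5% of this list were raised and 25% lowered, against 10.1% and 16.8% of all tested genes. A fit of the 4 libraries only gave 4 raised and 13 lowered genes of this list. *icl-1*, the bifunctional glyoxylate cycle gene, was at 363 and 126 CPM in the wild type and 208 and 24 CPM in *egl-9(lf)* (log2 fold change -1.39, adjusted p = 0.0026, and 0.35 without the replicate block), so that the strains overlapped while both replicate pairs fell. Of 68 nuclear genes of the respiratory chain 1 was raised and 5 lowered, with a median log2 fold change of -0.15, and the lowered ones numbered 1 when any 1 of the 4 libraries was left out. The shares of the main fit, 1.47% raised and 7.35% lowered, were both below those of all tested genes. In the fit of the 4 libraries only, 39 of the 68 were lowered and 5 raised. The strongest of the 5 lowered genes, *cyc-2.2*, a cytochrome c gene, fell from 29.7 and 32.4 to 11.7 and 11.1 CPM (log2 fold change -1.44). Of 13 tested genes of the mitochondrial genome 2 were raised and 2 lowered, 15.4% each, near the shares of all tested genes. *MTCE.33*, unread in the wild type, stood at 39.2 and 38.5 CPM in *egl-9(lf)* and 5.16 and 0 CPM in *egl-9(lf) hif-1(lf)*, at least 436-fold higher in *egl-9(lf)* than in the wild type, and was not called with robust estimation. The other genes of this genome lay between -0.78 and 0.52 in log2 fold change.

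Genes of propionate breakdown, in lists drawn up after values were seen because of *acdh-1*, moved in opposite directions in its alternative routes. *acdh-1* encodes the acyl-CoA dehydrogenase that starts the propionate shunt, a route used when vitamin B12 is scarce. It was at 277 and 242 CPM in the wild type and 3.79 and 1.94 CPM in *egl-9(lf)* (log2 fold change -6.49, SE 0.26, adjusted p = 3.8e-11). The other 4 shunt genes were lowered too, *hphd-1* (from 155 and 148 to 49.3 and 30.6 CPM, log2 fold change -1.94), *ech-6* (from 229 and 242 to 116 and 111 CPM, -1.06), *alh-8* (-0.59) and *hach-1* (-0.58). *nhr-68*, which encodes a nuclear receptor that activates the shunt, fell from 27.9 and 33.2 to 10.9 and 8.82 CPM (log2 fold change -1.61, SE 0.19, adjusted p = 1e-05), and its partner *nhr-10* was not called (-0.31, adjusted p = 0.15). All 5 shunt genes were lower in both mutant libraries than in either wild-type library, which held for 33.8% of all tested genes.

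The vitamin B12-dependent route moved the other way, with 4 of 5 genes raised. *pcca-1*, a propionyl-CoA carboxylase subunit, was at 227 and 212 CPM in the wild type and 437 and 459 CPM in *egl-9(lf)* (log2 fold change 1.03, SE 0.12, adjusted p = 9.7e-06). *pccb-1* (0.76), *mce-1* (0.73) and *mmcm-1* (0.65), for the other subunit, the epimerase and the mutase, were raised by less than 2-fold, and *mmab-1* (0.17) was not called. In *egl-9(lf) hif-1(lf)* the level of *acdh-1* was 284 and 280.2 CPM, close to the wild-type libraries.

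One-carbon metabolism, also listed after values were seen, fell moderately, with 5 of 10 methionine cycle genes lowered and 1 raised. *sams-1*, the main S-adenosylmethionine synthetase gene, was at 394 and 611 CPM in the wild type and 118 and 267 CPM in *egl-9(lf)* (log2 fold change -1.46, SE 0.16, adjusted p = 6.3e-06), and wild-type replicate 1 lay not far above mutant replicate 2. *metr-1* (-0.41), methionine synthase, *mthf-1* (-0.35), *ahcy-1* (-0.42) and *mel-32* (-0.46) fell by less, and the lowered count was 1 to 2 when any 1 of the 4 libraries was left out. The raised member was *sams-2* (2.56), which was not called without wild-type replicate 1 or without *egl-9(lf)* replicate 1. *phdh-1*, phosphoglycerate dehydrogenase, which draws serine from glycolysis and was likewise named after its values were seen, was at 16.2 and 13.9 CPM in the wild type and 178 and 207 CPM in *egl-9(lf)* (log2 fold change 3.67, SE 0.14, adjusted p = 3.1e-11).

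**Figure D3:**
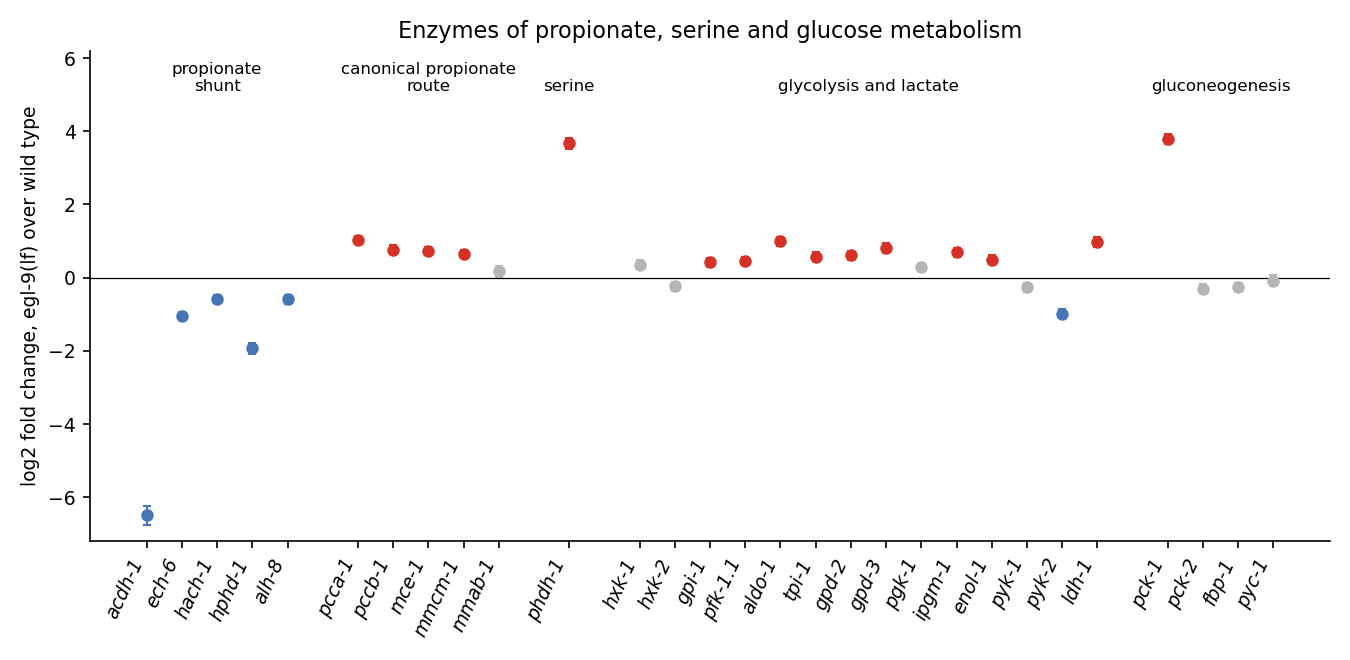
Log2 fold change of *egl-9(lf)* over the wild type for enzymes of propionate, serine and glucose metabolism, with bars for 1 standard error, red for raised, blue for lowered and grey for not called. The 5 propionate shunt genes lie below 0 with *acdh-1* at -6.49, 4 of the 5 genes of the vitamin B12-dependent route lie above 0 and are called, and *phdh-1* and *pck-1* stand well above the glycolytic genes.

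Of 60 genes of fatty acid oxidation, which breaks down fat for energy, 22 were lowered (36.7%, against 16.8% of all tested genes) and 4 raised (6.67%, against 10.1%), with a median log2 fold change of -0.19. Besides *acdh-1* the lowered ones included *acox-1.2* (-2.21), a peroxisomal acyl-CoA oxidase gene, and *cpt-4* (-2.0), of the carnitine palmitoyltransferase family, while *ech-9* (4.04) was raised. Among 16 desaturases and elongases 2 were raised and 5 lowered, and the lowered ones numbered 3 without wild-type replicate 1, 3 without wild-type replicate 2 and 3 without *egl-9(lf)* replicate 1. The raised ones numbered 0 to 1 when any 1 of the 4 libraries was left out. *fat-7*, a delta-9 desaturase gene, was at 35.9 and 32.1 CPM in the wild type and 9.56 and 9.94 CPM in *egl-9(lf)* (log2 fold change -1.81, SE 0.19, adjusted p = 4.7e-06) and at 247 and 344.8 CPM in *egl-9(lf) hif-1(lf)*. *far-3*, which encodes a fatty acid and retinol binding protein, moved against this direction, at 8.62 and 8.88 CPM in the wild type and 334 and 376 CPM in *egl-9(lf)* (log2 fold change 5.33, SE 0.14, adjusted p = 1.2e-12), and was among the 5 raised genes with the smallest p of the whole table.

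Immune effector genes controlled by the p38 kinase PMK-1 were raised in 10 of 11 cases, with a median log2 fold change of 1.89. *irg-5* was at 30.7 and 28.2 CPM in the wild type and 585 and 545 CPM in *egl-9(lf)* (log2 fold change 4.26, SE 0.13, adjusted p = 2.7e-12). *irg-4*, another infection response gene, rose from 62.7 and 71.1 to 416 and 468 CPM (log2 fold change 2.72). *sysm-1* (T24B8.5), a secreted peptide gene used as a reporter of the pathway, was at 20.7 and 21.6 CPM in the wild type and 76.3 and 95.5 CPM in *egl-9(lf)* (log2 fold change 2.0, SE 0.18, adjusted p = 6.1e-07). Both mutant libraries were above both wild-type ones in these 3 genes, but not in *catp-3*, at 78.3 and 15.2 CPM in the wild type and 157 and 40.9 CPM in *egl-9(lf)*. The 11 genes of the p38 cascade itself gave 2 small increases, *zip-2* (0.59) and *skn-1* (0.41), and these numbered 0 to 1 when any 1 of the 4 libraries was left out.

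Other antimicrobial families were split. Of 9 lysozyme genes 4 were raised and 1 lowered. *lys-7* was at 22.3 and 25.4 CPM in the wild type and 214 and 273 CPM in *egl-9(lf)* (log2 fold change 3.34, SE 0.18, adjusted p = 1.5e-09), and *lys-4* (1.96) and *lys-1* (0.66) were raised as well. *ilys-5*, an invertebrate-type lysozyme gene, went down instead, at 545 and 568 CPM in the wild type and 115.1 and 146 CPM in *egl-9(lf)* (log2 fold change -2.09, SE 0.15, adjusted p = 5.5e-08). Of the tested C-type lectin genes 29 were raised, 32 lowered and 43 not called, that is in both directions above the shares of all tested genes. *clec-52* was at 2.33 and 2.73 CPM in the wild type and 94.3 and 95.8 CPM in *egl-9(lf)* (log2 fold change 5.25, SE 0.18, adjusted p = 9.8e-12), and *clec-218* was at 76.7 and 91.3 CPM in the wild type and 12.4 and 14.4 CPM in *egl-9(lf)* (log2 fold change -2.64, SE 0.13, adjusted p = 3.4e-10). *clec-42* had 2 reads in the wild type and was higher by a ratio of 80.7 (95% counting interval 21.9 to 673). Among 15 antimicrobial peptides of the epidermis 4 were raised, led by *cnc-2* (2.09), *cnc-4* (1.94) and *nlp-29* (1.49), and 3 lowered, led by *nlp-26* (-1.80), with the raised ones at 1 without wild-type replicate 1 and 2 without *egl-9(lf)* replicate 2.

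Chaperone lists are set here against the shares of all tested genes, of which 10.1% were raised and 16.8% lowered. The raised share was 23.1% for small heat shock proteins, 20% for chaperones and 6.67% for folding genes of the endoplasmic reticulum. The lowered share was 15.4% for small heat shock proteins and 0% for both other lists. Of 13 small heat shock protein genes 3 were raised and 2 lowered, and of the former *hsp-12.3* rose from 1.09 and 1.2 to 10.6 and 12.4 CPM (log2 fold change 3.32) and *sip-1* (1.03) less. The lowered ones numbered 0 to 1 when any 1 of the 4 libraries was left out. Of 10 chaperones 2 were raised, with 0 to 1 when any 1 of the 4 libraries was left out, and 5 were raised and 2 lowered in the fit of the 4 libraries only. Of 15 folding genes of the endoplasmic reticulum 1 was raised, *hsp-4* (0.35), which was not called with any 1 library left out, and that fit lowered 4 genes of this list.

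Detoxification genes are read here against the shares of all tested genes, of which 16.8% were lowered and 10.1% raised. Of 49 cytochrome P450 genes 20 were lowered (40.8%) and 8 raised (16.3%), with a median log2 fold change of -0.78 and 12 lowered members without wild-type replicate 1. Raised P450 genes numbered 5 without wild-type replicate 1 and 5 without *egl-9(lf)* replicate 1. *cyp-35D1* fell from 1.82 and 1.96 to 0.240 and 0.0748 CPM (log2 fold change -3.45), and *cyp-35A5* (-2.52), *cyp-35C1* (-2.34) and *cyp-35A3* (-2.24), of the same xenobiotic-induced subfamily, were lowered with it. Besides *cyp-36A1* the raised members included *cyp-42A1* (2.22) and *cyp-13B1* (2.01). Of 59 UDP-glucuronosyltransferase genes 24 were lowered (40.7%) and 5 raised (8.47%), *ugt-65* rising from 2.42 and 3.76 to 51.4 and 69.2 CPM (log2 fold change 4.31) and *ugt-43* falling from 2.28 and 1.79 to 0.180 and 0.374 CPM (log2 fold change -2.92). Of 44 ABC transporter genes 18 were lowered, led by *pgp-1* (-1.71) and *pgp-13* (-1.70), and 4 raised, with 11 lowered without wild-type replicate 1 and 1 or 2 raised with any 1 library left out.

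Glutathione S-transferases were lowered in 11 and raised in 5 of 38 cases, the lowered count being 5 without wild-type replicate 1 and 7 without *egl-9(lf)* replicate 1 and the raised one 2 without wild-type replicate 1, 3 without *egl-9(lf)* replicate 1 and 3 without *egl-9(lf)* replicate 2. *gst-19* nonetheless gave one of the strongest increases of the table, at 0.775 and 1.11 CPM in the wild type and 195 and 269 CPM in *egl-9(lf)* (log2 fold change 7.98, SE 0.29, adjusted p = 1.2e-11). *gst-4*, known as a reporter of the oxidative stress factor SKN-1, was at 39.0 and 38.2 CPM in the wild type and 7.69 and 10.4 CPM in *egl-9(lf)* (log2 fold change -2.12, SE 0.17, adjusted p = 2.9e-07), and *gst-10* was lowered (-2.60).

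Nuclear hormone receptors, an unusually large family in this animal, gave 10 raised and 32 lowered genes of 187. The share lowered was close to that of all tested genes and the share raised was below it. Besides *nhr-57*, the raised ones included *nhr-251* (3.36), *nhr-155* (2.56) and *nhr-62* (2.14). *nhr-73* and *nhr-74* were almost lost. *nhr-73* had 32 reads in the wild type and none in *egl-9(lf)*, at least 9.52-fold lower, and *nhr-74* was at 9.44 and 6.41 CPM in the wild type and 0.0601 and 0.150 CPM in *egl-9(lf)*. Raised receptors numbered 6 without wild-type replicate 1 and 5 without *egl-9(lf)* replicate 1. Lowered receptors numbered 15 without wild-type replicate 1, 17 without *egl-9(lf)* replicate 1 and 20 without *egl-9(lf)* replicate 2 and 19 without the replicate block.

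Of 56 neuropeptide and insulin-like peptide genes 2 were raised (3.57%) and 3 lowered (5.36%). Both shares were below the 10.1% and 16.8% of all tested genes. *ins-19* had 1 read in the wild type and was higher by a ratio of 182 (95% counting interval 32.1 to 7216), and *ins-11* fell from 2.23 and 1.11 to 0.300 and 0 CPM (log2 fold change -3.44). The raised and lowered calls fell to 1 and to 1 or 2 when any 1 library was left out.

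**Figure D4:**
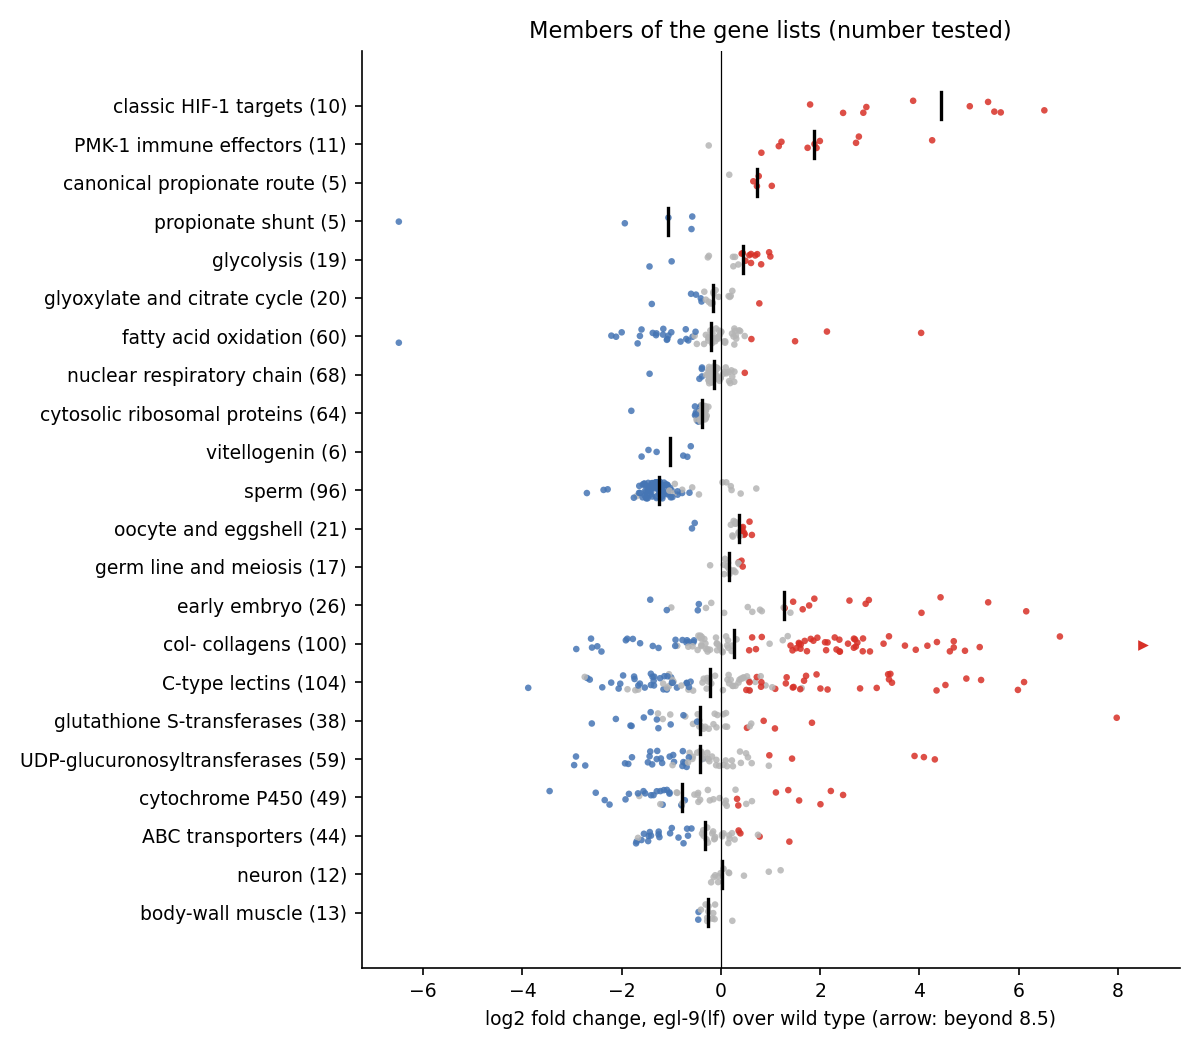
Log2 fold change of *egl-9(lf)* over the wild type for each tested member of 22 gene lists, with the number tested in parentheses, red for raised, blue for lowered, grey for not called and a black tick at the list's median. The arrow marks *col-78*, which lies beyond the axis and had no read in the wild type. The HIF-1 targets and PMK-1 effectors lie to the right, the vitellogenins, sperm genes and ribosomal protein genes to the left, and the collagens and C-type lectins on both sides.

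Reproductive genes differed in each compartment. All 6 vitellogenin genes, which encode the yolk proteins made by the intestine, were lowered. *vit-1* was at 11323 and 10681 CPM in the wild type and 3538 and 3738 CPM in *egl-9(lf)* (log2 fold change -1.60, SE 0.15, adjusted p = 1.7e-06). *vit-3* (-1.46) and *vit-4* (-1.29) fell more than 2-fold, and *vit-5* (-0.76), *vit-2* (-0.68) and *vit-6* (-0.61) less. Summed over the 6 genes the level was 107389.8 and 99019 CPM in the wild type and 57923 and 52819 CPM in *egl-9(lf)*, and the strains did not overlap. The lowered members numbered 3 without wild-type replicate 1 and 3 without *egl-9(lf)* replicate 2. Sperm, oocyte and embryo genes moved in the same libraries, as given next, and their part in this result was not tested.

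Of 96 sperm genes 81 were lowered and none was raised by edgeR or DESeq2, with 2 raised at an unadjusted p under 0.05, and the other settings raised at most 2, with libraries scaled to their totals alone. The median log2 fold change was -1.26. Their summed level was 6804 and 6932 CPM in the wild type and 2884 and 3095 CPM in *egl-9(lf)*. *spe-19*, a sperm activation gene, fell from 1.05 and 1.71 to 0 and 0.449 CPM (log2 fold change -2.70). Major sperm protein genes share reads between near-identical copies, and 30 of the 31 tested *msp-* genes were lowered. The *nspd-* and *ssp-* families, known from sperm, had 8 of 9 and 10 of 12 genes lowered. The genes of these families and the *msp-* genes are members of the same list of 96, so their counts add no further support. Over the whole list 84.4% were lowered, against 16.8% of all tested genes. Lowered sperm genes numbered 67 to 75 with 1 library left out, and the summed levels of the 2 strains were far apart.

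Oocyte and eggshell genes leaned upwards by less than 2-fold, with 8 raised and 2 lowered of 21. *cpg-3*, an eggshell proteoglycan gene, rose from 289 and 312 to 456 and 470.5 CPM (log2 fold change 0.63), with *lin-41* (0.58), *egg-3* (0.48), *puf-5* (0.47) and *egg-2* (0.46) next, whereas *perm-2* (-0.58) and *perm-4* (-0.53), of the permeability barrier of the egg, were lowered. The raised count was 0 to 3 when any 1 of the 4 libraries was left out, and 17 with libraries scaled to their totals alone. The summed level was 11570.4 and 12394 CPM in the wild type and 14446 and 14544 CPM in *egl-9(lf)*. Of 17 genes of the germ line and of meiosis 3 were raised, by at most 0.44 on the log2 scale, and none with any 1 library left out. The fit of the 4 libraries only raised 9 of these and 19 of the oocyte and eggshell genes.

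Genes first transcribed in the early embryo were raised in 12 of 26 tested cases (46.2%) and lowered in 4 (15.4%). Of all tested genes 10.1% were raised and 16.8% lowered. The list has 58 annotated genes, and the raised share is partly set by the filter on low counts. Members with few wild-type reads, such as *sdz-9* with 0 and *sdz-30* with 1, could pass it only through the mutant strains. Summed over the list the level was nonetheless lower in the mutant, 319 and 354 CPM against 394 and 389.8 CPM in the wild type. *pes-10* was at 0.0456 and 0.0854 CPM in the wild type and 0.962 and 1.35 CPM in *egl-9(lf)*, with 2 reads in the wild type and a ratio of 19.1 (95% counting interval 4.88 to 164). *vet-1* rose from 0.638 and 0.256 to 3.91 and 3.81 CPM (log2 fold change 2.98) and *vet-6* had 3 reads in the wild type and was higher by a ratio of 22.8 (95% counting interval 7.44 to 114). The raised members numbered 6 without wild-type replicate 1 and the lowered ones 1 without wild-type replicate 1, 1 without *egl-9(lf)* replicate 1 and 2 without *egl-9(lf)* replicate 2, and DESeq2 called 7 raised.

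**Figure D5:**
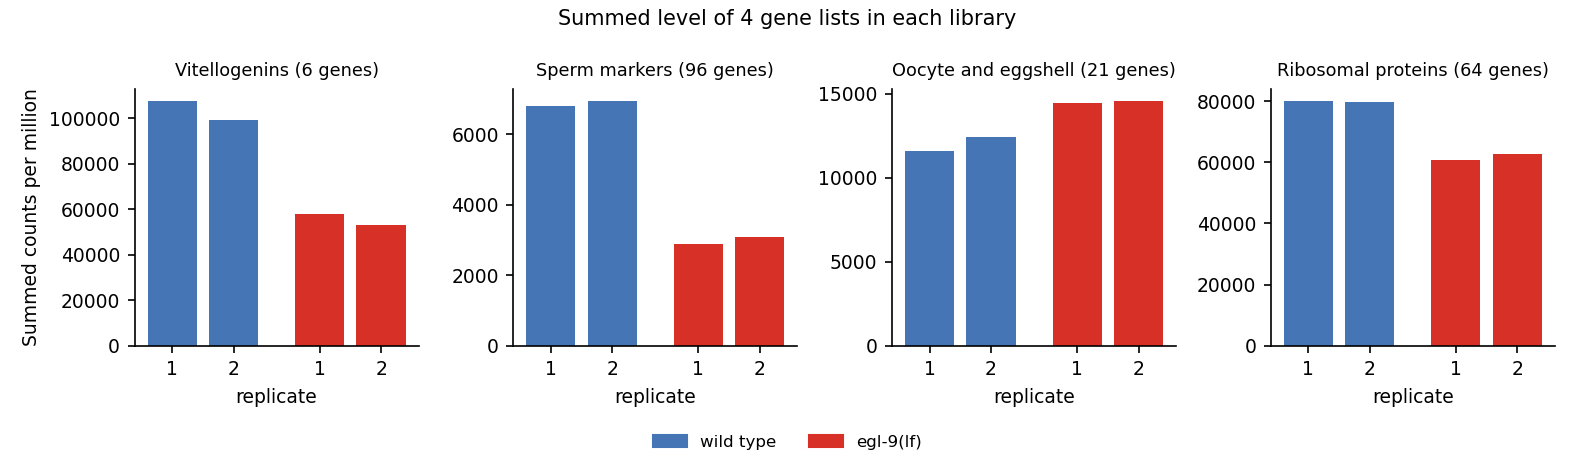
Summed level, in CPM, of 4 gene lists in each library, with blue bars for wild-type replicates 1 and 2 and red bars for *egl-9(lf)* replicates 1 and 2, each panel on its own axis from 0. Vitellogenins and sperm genes are much lower in both mutant libraries, whereas oocyte and eggshell genes are somewhat higher and ribosomal protein genes somewhat lower.

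Ribosomal protein genes were all below 0 in log2 fold change, with a median of -0.38 over 64 genes, of which 14 were lowered. Their summed level was 79971 and 79849 CPM in the wild type and 60815 and 62570.2 CPM in *egl-9(lf)*. The number of calls depended on the settings, with 1 to 2 when any 1 of the 4 libraries was left out, 4 without the replicate block, 3 with libraries scaled to their totals alone and 64 in a fit of the 4 libraries only. The largest change of the 64 was in *rpl-42* (-1.80), at 3.42 and 3.33 CPM in the wild type and 0.841 and 1.12 CPM in *egl-9(lf)*.

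Markers of other tissues were also examined. None of 12 neuronal and none of 6 pharyngeal genes was called by edgeR, none passed an unadjusted p under 0.05 and none was called by DESeq2. Of 13 genes of body-wall muscle 2 were lowered, *tnt-2* (-0.46) and *tnt-3* (-0.45), and none with any 1 library left out, while 12 of the 13 had a log2 fold change below 0. The lowered share of muscle genes in the main fit, 15.4%, was close to the 16.8% of all tested genes. In the fit of the 4 libraries only, 12 muscle genes and 2 pharyngeal genes were lowered. Of 11 intestinal genes 2 were raised and 4 lowered, the lowered ones numbering 1 without *egl-9(lf)* replicate 2 and the raised ones 1 without wild-type replicate 2, 1 without *egl-9(lf)* replicate 1 and 1 without *egl-9(lf)* replicate 2. *cpr-1*, a cysteine protease gene of the gut, was at 154 and 129 CPM in the wild type and 905 and 862 CPM in *egl-9(lf)* (log2 fold change 2.65, SE 0.14, adjusted p = 8.8e-10), and the vacuolar ATPase subunit gene *vha-6* (-0.74) and the intestinal actin gene *act-5* (-0.56) were lowered. Of 12 tested *asp-* genes, of aspartyl proteases, 3 were raised and 2 lowered. The raised ones included *asp-5* (from 494 and 486 to 2032 and 1834 CPM, log2 fold change 1.98) and *asp-6* (from 585 and 599.8 to 2049 and 2027 CPM, 1.78), named after their values were seen.

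Among all genes with a symbol, the strongest increases included nematode-specific peptide genes of the *nspe-* group, whose list was drawn up after values were seen. All 7 tested *nspe-* genes were raised, with a median log2 fold change of 5.50. *nspe-6* had no read in the wild type and 42.1 and 41.0 CPM in *egl-9(lf)*, at least 467-fold higher, and *nspe-3* was at least 231-fold higher by the same floor. *nspe-4* rose from 1.14 and 0.427 to 36.6 and 39.6 CPM (log2 fold change 5.50) and *nspe-1* (5.31) with it. The mutant libraries gave nearly equal values for *nspe-6* and *nspe-4*. *grd-17*, *cld-1* and *sre-45* were also unread in the wild type, and were at least 36.2-fold, 20.9-fold and 16.8-fold higher. *fipr-20*, unread as well, was at least 15.7-fold higher, and 8 of 17 *fipr-* genes, named as related to fungus-induced proteins, were raised.

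The strongest decreases included the *pud-* genes, named for proteins that rise in a *daf-2* mutant and listed after values were seen. All 5 tested members were lowered, *pud-2.1* and *pud-2.2* having identical values. *pud-3* was at 755 and 757 CPM in the wild type and 12.4 and 24.5 CPM in *egl-9(lf)* (log2 fold change -5.38, SE 0.24, adjusted p = 1.5e-10), and *pud-4* was at 201 and 201 CPM in the wild type and 4.99 and 6.73 CPM in *egl-9(lf)* (log2 fold change -5.11, SE 0.16, adjusted p = 3.3e-12). *C30G12.2* fell from 432 and 334 to 7.87 and 9.05 CPM (log2 fold change -5.50, SE 0.16, adjusted p = 2.7e-12), and *T22B7.7* fell from 185 and 146 to 7.63 and 7.63 CPM (log2 fold change -4.44, SE 0.16, adjusted p = 1.4e-11). These transcripts nearly vanished in both mutant libraries. Genes of short-chain dehydrogenases went the same way, *dhs-26* (from 63.2 and 40.5 to 0.721 and 0.449 CPM, log2 fold change -6.44) and *dhs-16*, with 1 read in the mutant and a ratio of 126 (95% counting interval 22.2 to 5003) in favour of the wild type. *poml-4*, of the paraoxonase family, fell from 2.60 and 2.05 to 0 and 0.150 CPM, with 2 reads in the mutant and a ratio of 36.1 (95% counting interval 9.69 to 303) in favour of the wild type, and *srbc-15*, listed as a pseudogene of a chemoreceptor, fell from 9.30 and 13.5 to 0.180 and 0 CPM. In *egl-9(lf) hif-1(lf)* *srbc-15* remained low, at 0.446 and 0.267 CPM. There *dhs-26* was at 25.2 and 18.3 CPM, *dhs-16* at 3.63 and 5.02 CPM and *poml-4* at 1.53 and 2.03 CPM.

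A pair of genes that RefSeq (WBcel235) places next to each other on chromosome V was nearly lost. *F56A4.3* was at 141 and 132 CPM in the wild type and 1.38 and 0.748 CPM in *egl-9(lf)* (log2 fold change -6.98, SE 0.25, adjusted p = 1.4e-11), and *irld-35* fell from 32.6 and 39.5 to 0.781 and 0 CPM (log2 fold change -6.38). In *egl-9(lf) hif-1(lf)* the level of *F56A4.3* was 0.955 and 0.374 CPM and that of *irld-35* was 0 and 0 CPM. In *cyp-36A1(lf); egl-9(lf)* they were at 0.259 and 0 CPM and at 0.207 and 0 CPM. *srbc-15*, also on chromosome V, was at 0.311 and 0.247 CPM there. All mutant strains of the series carry *egl-9(sa307)*, and the paper lists *egl-9* on the same chromosome. A difference of strain background carried along with the allele was not tested. Of 11 tested *irld-* genes, counted after values were seen, which encode proteins with a receptor L domain, 10 were lowered. By contrast, *pud-3* was at 1037 and 839 CPM and *C30G12.2* at 224 and 214 CPM in *egl-9(lf) hif-1(lf)*.

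Genes known as downstream of the insulin pathway factor DAF-16 were split, in a list drawn up after values were seen. Of 9 tested *dod-* genes 5 were raised and 2 lowered. *dod-24* was at 61.1 and 59.7 CPM in the wild type and 483 and 522 CPM in *egl-9(lf)* (log2 fold change 3.05, SE 0.14, adjusted p = 2.1e-10), *dod-21* rose from 0.410 and 0.256 to 17.8 and 18.5 CPM (log2 fold change 5.64), and *dod-17* (-2.17) was lowered. *dod-3* was not called without the replicate block (adjusted p = 0.1). Further genes named after their values were seen were *lea-1*, of a family of desiccation proteins, at 91.5 and 98.5 CPM in the wild type and 583 and 526 CPM in *egl-9(lf)* (log2 fold change 2.55), *tyr-2*, a tyrosinase gene (4.80), and *endu-2*, an endoribonuclease gene (2.99).

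Genes lowered at least 2-fold made up 12.1% of tested genes on chromosome I, 12.1% on II, 8.42% on III, 15.9% on IV, 13.7% on V and 4.55% on X. The X chromosome thus held the smallest share. None of the 96 tested sperm genes lay on it, and their part in the shares of the chromosomes was not tested. Raised genes of at least 2-fold made up between 2.03% on chromosome III and 6.38% on V.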

How the data were processed

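RNA was sequenced as single-end reads from polyA-selected libraries, 2 per strain, each a separate population of about 150 animals. The authors aligned reads to the ce10 genome with the Ensembl annotation using RSEM 1.2.15 and Bowtie 1.0.1 and deposited expected counts and FPKM values per gene for all 8 libraries. RSEM shares reads between similar genes, so that 36.1% of the values above 0 carried a fraction, and these were rounded. Genes were kept by filterByExpr (minimum count 10, minimum total 15), libraries were scaled by TMM, and edgeR 4.0.16 in R 4.3.3 fitted strain and replicate number to all 8 libraries by the quasi-likelihood method. The contrast was *egl-9(lf)* minus wild type, with Benjamini-Hochberg adjustment over 14311 genes. SE is the log2 fold change divided by the square root of F. The replicate numbers, which the labels give to every strain, were checked for pairing: deviations from strain means of same-numbered libraries correlated at 0.121 to 0.319 in all 6 pairs of strains, and the block was kept.

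Gene names and chromosomes came from RefSeq (WBcel235) for 20889 and from Ensembl for 5 of 21372 genes. Of RefSeq positions the order of genes alone was used, since the builds differ. Members and lists were chosen with earlier results of these data known. The text names members of the pathway, target, sulfur, hydroxylase, iron, FMO, antioxidant and vitellogenin lists, up to 5 raised and 5 lowered genes of any other list, the 10 most raised and 10 most lowered genes among those with a symbol and at least 10 counts in both libraries of the higher strain, and the 5 genes of smallest p in each direction. Other genes are said to be named after their values were seen. Of genes with up to 3 reads in 1 strain, ratios carry exact 95% intervals for counting error only, and genes at 0 were set against a floor of 3 counts over the strain. Depth was 11925027 to 22269111 expected counts in the 4 libraries. The spread behind the p-values was estimated over all 8 libraries, 2 per strain, with information shared between genes. It covers only the variation between such populations. Alternatives were no block, no filter, RLE scaling, library totals alone, DESeq2 1.42.0, revised and robust edgeR estimates, the 4 libraries alone, limma 3.58.1 on log2(FPKM + 0.5) and log2(FPKM + 0.1) of the deposited FPKM, an adjusted p under 0.01, and leaving out each library. The fitting script was tested on simulated data. A search of promoters for the HIF-1 motif was planned and not run.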

Additional observations from a re-analysis of the deposited data

How the results depend on the processing

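At an adjusted p under 0.05 lowered genes outnumbered raised ones under every alternative except scaling to library totals alone, which gave 2283 raised and 2170 lowered genes. Raised genes numbered 1452 and ranged from 514 to 875 with 1 library left out, and lowered genes numbered 2408 and ranged from 1286 to 1844. At least 2-fold raised genes ranged from 401 to 523 and lowered genes from 1054 to 1514 in the same settings, in which the strain left with 1 library was assumed to vary like the others. A fit of the 4 libraries alone gave 2966 raised genes, and an adjusted p under 0.01 gave 734. Without the replicate block 1069 genes were raised and 1949 lowered, 519 and 1463 of them at least 2-fold. Of the 300 named genes that were called, 173 were called under each of the 14 alternatives and 127 were lost under at least 1, 65 of them only with a library left out and 39 without the block. Only *dpy-13* and *dpy-4* changed sign, to -0.68 and -0.10 without *egl-9(lf)* replicate 1, and with 1 library left out their log2 fold changes reached up to 4.63 and 3.62. With 2 populations per strain, changes under 2-fold and genes of a few reads are the least certain, and the *egl-9(lf)* strain carries 1 allele.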
